A study of Mus musculus with 8 samples.

Results

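A set of 10 genes of the Ly6 superfamily were described across 4 subsets of mouse medullary thymic epithelial cells (mTECs). The members were Psca, Ly6a, Ly6c1, Ly6d, Ly6e, Ly6g6c, Lypd2, Lypd3, Lynx1 and Slurp1, 10 of the 25466 genes in the count table, and all 10 were found by their gene symbol. Psca was chosen by its Tspan8 by MHCII interaction in these same libraries, that is, by how far its difference between Tspan8pos and Tspan8neg cells depended on MHCII, so its values are given as a description without a test. The other 9 members were chosen as relatives of Psca, with earlier results of these data known, and all 9 passed the filter on low counts.

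The study sorted live CD45neg EpCAMpos CDR1neg mTECs from the thymus of wild-type BL6N6 mice aged 4 to 6 weeks and split them by 2 surface markers, the tetraspanin Tspan8 and MHC class II (MHCII). Bulk RNA-seq was made from 2 libraries of each subset, which were Tspan8negMHCIIlo, Tspan8negMHCIIhi, Tspan8posMHCIIhi and Tspan8posMHCIIlo. All 4 groups carried the same wild-type genotype and no treatment, and the number of mice behind a library is not given in the sources used here. Where the labels call the 2 libraries of a group biological replicates, nothing says whether they came from separate mice, so the p-values measure only the spread between these libraries.

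The total count was between 1941518 and 7783841 per library, both limits in Tspan8posMHCIIlo. Tspan8 itself was at 16.3 to 64.5 normalized counts in the 4 Tspan8neg libraries and at 1557.8 to 1818 in the 4 Tspan8pos libraries. H2-Ab1, an MHCII gene, was at 7504 and 9247 in Tspan8negMHCIIlo, 23471 and 23933 in Tspan8negMHCIIhi, 10926 and 11825 in Tspan8posMHCIIhi and 2154 and 2322 in Tspan8posMHCIIlo, so the Tspan8negMHCIIlo libraries were closer to Tspan8posMHCIIhi than to Tspan8posMHCIIlo for this gene. The 6 markers of mTECs and epithelium summed to 2922 to 5379 CPM (counts scaled to the library total) and 4 markers of cortical thymic epithelium to 55.5 to 269. Normalized counts are counts divided by the library's DESeq2 size factor. A gene was called at a Benjamini-Hochberg adjusted p below 0.01 and a difference of at least 2-fold, in edgeR's quasi-likelihood test over 17006 genes. In bulk samples, fewer cells of a type and less RNA per cell cannot be told apart.

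Ly6 superfamily proteins share a small fold, the Ly6/uPAR domain, in which loops reach out from a core held together by disulfide bonds between cysteines. Most are tied to the outer cell membrane by a glycosylphosphatidylinositol (GPI) anchor, and a few are secreted. Several of them, such as Lynx1 and Slurp1, bind nicotinic acetylcholine receptors, as do the snake toxins with the same fold. Many family genes lie side by side in a cluster, and skin, gut and other surface epithelia use them, as do blood cells, where Ly6 antigens are long-standing surface markers. Medullary thymic epithelium is known for expressing genes of peripheral tissues, which are then shown to developing T cells.

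The coding sequences of the members were rich in cysteine codons, which describes the family they were chosen from and tests nothing. Codons outside the Ly6/uPAR domain were counted as well. In the longest GENCODE coding sequence of each member, the triplets TGC and TGT, which encode cysteine, made up 5.23% (Lypd3) to 9.09% (Slurp1) of the codons, against a median of 2.13% over 21492 mouse genes. All 10 members were above that median, and 7.08% of the genes were at or above Lypd3. The sequences of Psca, its near neighbour Slurp1 and Lypd2 are shown because these 3 genes had the lowest levels in Tspan8negMHCIIlo, and they held 11, 10 and 10 such codons among 123, 110 and 127. Each is a stretch of the spliced coding sequence on GRCm38, 5′ to 3′, from the first such codon to the codon after the last (bases 67 to 342 of Psca and 73 to 300 of Slurp1 and Lypd2), with the in-frame TGC and TGT triplets in capitals. Psca lies at chr15:74714839-74717069 on the plus strand, Slurp1 at chr15:74724318-74728034 and Lypd2 at chr15:74732247-74734329, both on the minus strand.
Psca: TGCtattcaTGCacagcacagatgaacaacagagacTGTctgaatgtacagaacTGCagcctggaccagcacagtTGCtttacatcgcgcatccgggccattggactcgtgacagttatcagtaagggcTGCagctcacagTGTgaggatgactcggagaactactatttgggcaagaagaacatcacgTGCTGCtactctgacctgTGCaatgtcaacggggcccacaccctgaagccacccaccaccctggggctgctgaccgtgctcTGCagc
Slurp1: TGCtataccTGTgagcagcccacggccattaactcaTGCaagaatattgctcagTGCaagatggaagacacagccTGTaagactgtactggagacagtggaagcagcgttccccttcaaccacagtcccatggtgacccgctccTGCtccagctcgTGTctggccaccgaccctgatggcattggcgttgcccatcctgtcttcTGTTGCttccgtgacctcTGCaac
Lypd2: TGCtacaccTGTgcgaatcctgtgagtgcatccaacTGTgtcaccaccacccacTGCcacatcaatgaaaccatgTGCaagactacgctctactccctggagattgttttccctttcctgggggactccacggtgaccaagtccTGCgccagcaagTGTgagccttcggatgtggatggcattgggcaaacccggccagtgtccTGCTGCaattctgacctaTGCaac
All 3 stretches hold a pair of adjacent capital triplets, which is followed by 1 more in Slurp1 and Lypd2 and by 2 more in Psca.

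Psca, a GPI-anchored surface protein named after prostate stem cells, was close to absent in a single subset. Its normalized counts were 7.29 and 8.77 in Tspan8negMHCIIlo, from 7 raw counts in each library, and 143 and 153 in Tspan8negMHCIIhi. They were 226 and 282 in Tspan8posMHCIIhi and 266 and 318 in Tspan8posMHCIIlo. The Tspan8negMHCIIlo libraries lay far below the other 6, while the ranges of the Tspan8pos subsets overlapped. As ratios of subset means, Psca was 36.4-fold higher in Tspan8pos than in Tspan8neg cells at low MHCII and 1.71-fold higher at high MHCII. Between MHCII levels it was 18.5-fold higher in Tspan8negMHCIIhi than in Tspan8negMHCIIlo, and 1.15-fold higher in Tspan8posMHCIIlo than in Tspan8posMHCIIhi. The difference between the 2 Tspan8 ratios, -4.41 on the log2 scale, is what chose the gene. Psca came at place 5 by p-value among all genes in that interaction, in which 783 genes were called.

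**Figure D1:**
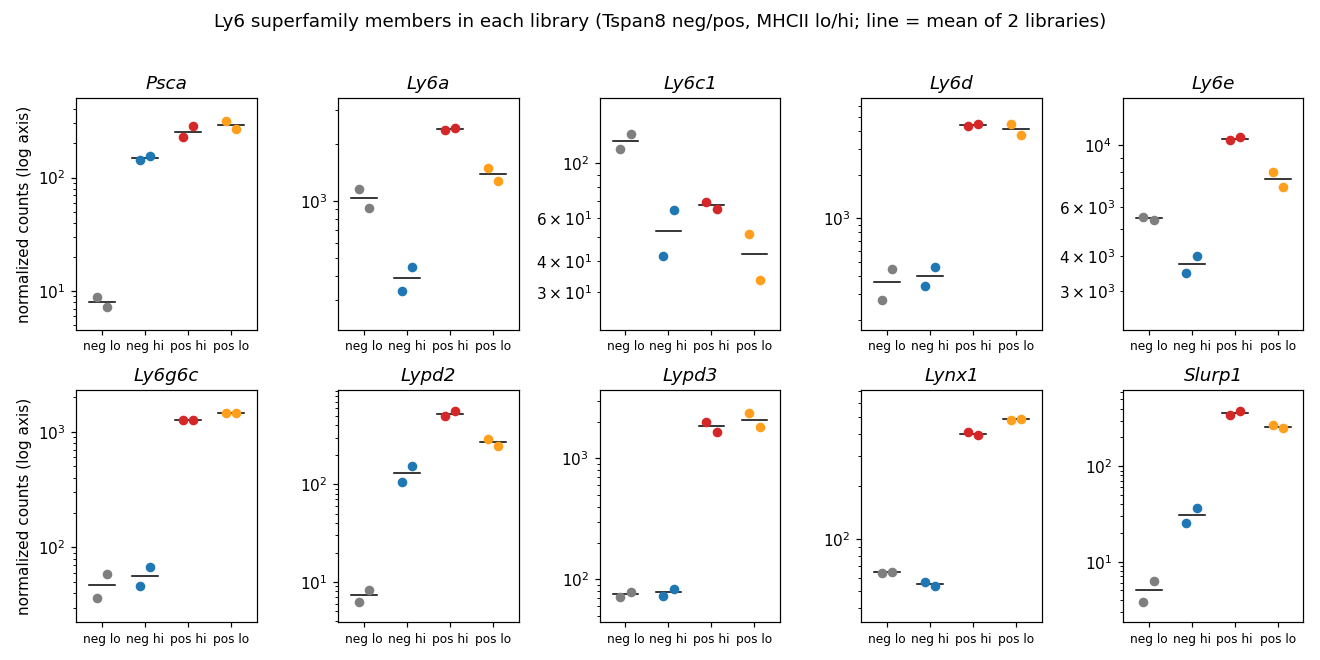
Normalized counts of the 10 members (y axis, log scale) in the 2 libraries of each subset (x axis, neg or pos for Tspan8 and lo or hi for MHCII), with points for libraries and a line for the mean. Psca and Lypd2 were low in Tspan8negMHCIIlo alone, at 6.26 to 8.77 normalized counts, while Ly6d, Ly6g6c, Lypd3 and Lynx1 split the Tspan8pos from the Tspan8neg libraries at both MHCII levels.

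Lypd2 and Slurp1 lie near Psca on chromosome 15, with Them6 between Psca and Slurp1, and were higher both with Tspan8 and, in Tspan8neg cells, with MHCII. Lypd2, a GPI-anchored member of the LY6/PLAUR group, was at 6.26 and 8.33 normalized counts in Tspan8negMHCIIlo, 107 and 154 in Tspan8negMHCIIhi, 496 and 561 in Tspan8posMHCIIhi and 244 and 293 in Tspan8posMHCIIlo. No 2 of its subsets overlapped, and the Tspan8negMHCIIlo values came from 5 and 8 raw counts. Lypd2 was 35.3-fold higher in Tspan8pos cells at low MHCII (log2 fold change 5.14 ± 0.30 SE, adjusted p = 4.33e-07 in edgeR) and 4.18-fold higher at high MHCII (2.06 ± 0.19, adjusted p = 1.02e-05).

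Slurp1, a secreted ligand of nicotinic receptors that skin keratinocytes release, was at 3.76 and 6.24 normalized counts in Tspan8negMHCIIlo and 25.4 and 36.7 in Tspan8negMHCIIhi. It reached 344 and 380 in Tspan8posMHCIIhi and 251 and 269 in Tspan8posMHCIIlo, and no 2 subsets overlapped. The Tspan8negMHCIIlo values of Slurp1 came from 3 and 6 raw counts. The Tspan8 difference was 49.5-fold at low MHCII (log2 5.63 ± 0.30) and 11.8-fold at high MHCII (3.56 ± 0.21), with adjusted p of 2.53e-07 and 4.94e-07 in edgeR. Them6 overlaps Slurp1 on the opposite strand, and the 2 sources used here give different library kits, so it is not settled whether reads were assigned by strand. Them6 was at means of 48.8, 28.2, 50.8 and 62.4 in the 4 subsets, in the order of the plot of levels, and was not called between Tspan8 levels.

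Ly6d, Ly6g6c, Lypd3 and Lynx1 formed a group that differed with Tspan8 and hardly with MHCII. Ly6d, a GPI-anchored antigen known as a marker of lymphoid progenitors and of stratified epithelium, was at 272 and 451 normalized counts in Tspan8negMHCIIlo and 339 and 463 in Tspan8negMHCIIhi, against 4356 and 4479 in Tspan8posMHCIIhi and 3801 and 4533 in Tspan8posMHCIIlo. The Tspan8neg subsets overlapped each other, as did the Tspan8pos subsets. The Tspan8 difference was 11.4-fold at both MHCII levels (log2 3.52 ± 0.24 in each, adjusted p = 1.07e-06 and 1.12e-06 in edgeR).

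Lypd3, also named C4.4A, is a GPI-anchored protein of the upper layers of squamous epithelium with a pair of Ly6/uPAR domains. It was at 71.4 to 83.0 normalized counts in the 4 Tspan8neg libraries and at 1661 to 2356 in the 4 Tspan8pos libraries. Its Tspan8 difference was 27.4-fold at low and 24.3-fold at high MHCII (log2 4.78 ± 0.20 and 4.61 ± 0.19). Ly6g6c, a member encoded in the MHC region, was at 36.3 to 67.4 in the Tspan8neg libraries and at 1260 to 1457 in the Tspan8pos libraries. The log2 fold changes of Ly6g6c were 4.92 ± 0.23 at low MHCII and 4.51 ± 0.22 at high MHCII, and the adjusted p of both genes was between 9.20e-08 and 2.38e-07 in edgeR.

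Lynx1, a GPI-anchored modulator of nicotinic receptors first known from neurons, was at 53.6 to 64.5 normalized counts in the Tspan8neg libraries and at 392 to 490 in the Tspan8pos libraries. Its Tspan8 difference was the smallest of these 4 genes, at 7.54-fold in MHCIIlo and 7.58-fold in MHCIIhi cells (log2 2.91 ± 0.16 and 2.92 ± 0.15, adjusted p = 2.62e-07 and 2.92e-07 in edgeR). Opposite-strand genes overlap Lypd3 (Gm26550) and Ly6g6c (Mpig6b). Gm26550 was at a mean of at most 13.6 normalized counts in any subset and Mpig6b at most 47.1, both below the level of the member in the same subset.

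The sequences upstream of Lypd3 and Ly6g6c are shown because these genes moved together with Tspan8 while lying on different chromosomes. They are the 250 bases before the RefSeq start on GRCm38.p6, 5′ to 3′ on the strand of the gene, and Ly6c1 was the only other member with an entry. Capitals mark matches on either strand to AGGAAG (a form of the ETS site) and CACCC (a box bound by Krüppel-like factors). They also mark TGANTCA (AP-1), TTCNNNGAA (STAT) and TATAAA (the TATA box). The RefSeq start of Ly6g6c lies inside the GENCODE gene, downstream of its first annotated base.
Lypd3, chr7:24636320-24636569, plus strand: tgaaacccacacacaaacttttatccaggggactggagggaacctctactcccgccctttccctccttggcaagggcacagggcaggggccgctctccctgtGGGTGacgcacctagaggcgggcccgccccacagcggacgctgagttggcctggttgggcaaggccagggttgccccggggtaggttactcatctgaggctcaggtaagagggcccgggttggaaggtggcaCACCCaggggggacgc
Ly6g6c, chr17:35067075-35067324, plus strand: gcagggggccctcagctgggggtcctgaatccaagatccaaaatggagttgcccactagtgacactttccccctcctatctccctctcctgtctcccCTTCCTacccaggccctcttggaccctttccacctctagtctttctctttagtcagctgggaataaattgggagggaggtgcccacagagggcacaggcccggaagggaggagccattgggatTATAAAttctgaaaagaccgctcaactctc
The Lypd3 window held 2 matches to CACCC and none of the others, and the Ly6g6c window held 1 match to AGGAAG and 1 to TATAAA, which begins 30 bases before the start. The 2 windows shared none of the 5 motifs as written. Both hold GGAAG, a shorter part of AGGAAG that was not searched for and is in lower case. Of 32851 windows of the same length, 52.0% held CACCC, 29.5% AGGAAG, 12.4% TATAAA, 7.02% TTCNNNGAA and 6.75% TGANTCA.

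Ly6a and Ly6e moved together in another way, with the lowest levels in Tspan8negMHCIIhi. Ly6a, known as Sca-1, is a GPI-anchored antigen of stem and progenitor cells, endothelium and activated lymphocytes. It was at 915 and 1153 normalized counts in Tspan8negMHCIIlo, 333 and 447 in Tspan8negMHCIIhi, 2368 and 2425 in Tspan8posMHCIIhi and 1276 and 1489 in Tspan8posMHCIIlo, with no overlap between subsets. Ly6a was 6.38-fold higher with Tspan8 at high MHCII (log2 2.67 ± 0.18, adjusted p = 1.02e-06 in edgeR). At low MHCII its log2 difference was 0.41 ± 0.17, which was not called (adjusted p = 0.0721).

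Ly6e, an interferon-responsive GPI-anchored protein that thymocytes and many other cells carry, had the highest counts of the 10 members. It was at 5383 and 5529 normalized counts in Tspan8negMHCIIlo, 3494 and 4014 in Tspan8negMHCIIhi, 10368 and 10671 in Tspan8posMHCIIhi and 7073 and 8006 in Tspan8posMHCIIlo. These ranges did not overlap. The difference with Tspan8 was 2.92-fold at high MHCII (log2 1.55 ± 0.12, adjusted p = 3.30e-06 in edgeR) and 1.38-fold at low MHCII (0.46 ± 0.12, adjusted p = 0.00928), the latter inside the 2-fold limit.

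Ly6c1, a GPI-anchored antigen of endothelium, monocytes and T cell subsets, was the only tested member called lower with Tspan8, and only at low MHCII. It was at 114 and 132 normalized counts in Tspan8negMHCIIlo, 42.1 and 64.4 in Tspan8negMHCIIhi, 65.1 and 69.8 in Tspan8posMHCIIhi and 33.7 and 51.8 in Tspan8posMHCIIlo. The Tspan8negMHCIIlo libraries lay above the other 6, and Tspan8negMHCIIhi overlapped Tspan8posMHCIIlo. Ly6c1 fell 3.09-fold with Tspan8 at low MHCII (log2 -1.63 ± 0.30, adjusted p = 0.00126 in edgeR). The call was lost without Tspan8posMHCIIlo replicate 2 (-1.26, adjusted p = 0.0386 in edgeR) and held in 17 of 20 random draws that thinned all libraries to the smallest total (-1.85 to -1.14).

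Ly6c1 has a near-identical neighbour, Ly6c2, and this limits its counts. The sequences are shown because reads of 54 bases were used, and capitals mark the positions at which the 2 coding sequences of 393 bases differ. Bases 1 to 270 are shown, which hold 7 of the 9 differences, from the spliced sequences of the GRCm38 minus strand, from Ly6c1 at chr15:75044018-75048830 and Ly6c2 at chr15:75108158-75111970.
Ly6c1: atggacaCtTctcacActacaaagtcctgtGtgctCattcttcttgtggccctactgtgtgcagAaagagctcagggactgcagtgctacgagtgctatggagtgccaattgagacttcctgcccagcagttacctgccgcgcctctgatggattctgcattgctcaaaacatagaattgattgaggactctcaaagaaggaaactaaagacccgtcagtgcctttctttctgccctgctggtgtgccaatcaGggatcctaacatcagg
Ly6c2: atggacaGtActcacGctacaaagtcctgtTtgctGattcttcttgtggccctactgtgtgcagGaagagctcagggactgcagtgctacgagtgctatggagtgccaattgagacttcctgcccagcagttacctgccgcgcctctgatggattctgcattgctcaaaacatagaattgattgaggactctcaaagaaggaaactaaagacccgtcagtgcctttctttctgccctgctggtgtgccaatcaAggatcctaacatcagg
Over the whole coding part they differed at 9 positions (97.7% identical), and 154 of the 340 possible windows of 54 bases in the coding part were the same in both. Over whole transcripts, 30.3% of the 54-base windows of Ly6c1 were found in Ly6c2 or Ly6a transcripts and 17.0% of those of Ly6a in another gene, mainly Ly6c1. For Psca, Ly6d, Ly6e, Ly6g6c, Lypd2 and Lynx1 the share was 0, and for Lypd3 and Slurp1 it was 7.64% and 9.18%, all in the overlapping genes named above. How Salmon divided the shared reads of Ly6a, Ly6c1 and Ly6c2 was not tested, and their values are uncertain to that degree.

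Between MHCII levels of Tspan8neg cells, summed endothelial and thymocyte markers were lower with MHCII, as Ly6a and Ly6c1 were. The summed level of 7 endothelial markers was 136 to 190 CPM in Tspan8negMHCIIlo, 43.3 to 52.8 in Tspan8negMHCIIhi, 33.5 to 36.2 in Tspan8posMHCIIhi and 108 to 144 in Tspan8posMHCIIlo. That of 8 thymocyte markers was 362 to 1016 CPM in Tspan8negMHCIIlo and 65.9 to 203 in the other 6 libraries. In that comparison 3 of the 7 and 6 of the 8 markers were called lower. Elsewhere the endothelial sum was lowest in Tspan8posMHCIIhi, where Ly6a was highest, and Ly6c1 had its lowest mean in Tspan8posMHCIIlo, where that sum was 108 to 144 CPM. The endothelial markers did not move as 1 group. With Tspan8 at low MHCII, where Ly6c1 was lower, Tek was called higher and Pecam1 lower, and the other endothelial markers were not called. In the same comparison 4 of the 8 thymocyte markers were called lower and 0 higher. At most 1 endothelial marker and no thymocyte marker was at 0 in a library. The part of these cells in the Ly6a and Ly6c1 differences was not tested.

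Per kilobase of exon, the order of the members changed with Tspan8. The 10 members together summed to 2975 normalized counts per kilobase in Tspan8negMHCIIlo, 2363 in Tspan8negMHCIIhi, 14069 in Tspan8posMHCIIhi and 12023 in Tspan8posMHCIIlo. Ly6e took 48.5% and 42.0% of that sum in the Tspan8neg subsets, more than any other member, and 19.8% and 16.6% in the Tspan8pos subsets. Ly6d took 16.3% and 22.8% in the Tspan8neg subsets and 42.2% and 46.6% in Tspan8posMHCIIhi and Tspan8posMHCIIlo, where it was the highest member per kilobase. These shares are levels, not tests, and they depend on the exon length used.

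Counted over the 9 tested members, the comparison of Tspan8pos with Tspan8neg cells at low MHCII asked what marks Tspan8pos cells among those with little MHCII. Of the 9, 6 were higher (Ly6d, Ly6g6c, Lypd2, Lypd3, Lynx1 and Slurp1), where 12.1% of all tested genes were higher, and 1 was lower (Ly6c1), where 9.34% were (21.4% either way). Ly6a and Ly6e were not called. Over 20 draws thinned to the smallest total, the log2 fold change was 4.98 to 6.75 for Slurp1 and 4.61 to 6.17 for Lypd2. The median log2 fold change of the 9 was 3.52, and that of all genes tested was -0.03.

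The same comparison at high MHCII called 8 of the 9 higher, all but Ly6c1, and 0 lower. Of all genes, 11.0% were higher and 7.45% lower (18.5% either way). The median was 2.92 against -0.03 over all genes. Ly6c1 had a log2 difference of 0.38 ± 0.28 (adjusted p = 0.307 in edgeR). The unadjusted p below 0.05 was met by 8 members in the higher and 0 in the lower direction, and DESeq2 called 8 and 0. The 5 markers of late keratinized mTECs were all called higher in both Tspan8 comparisons, and they summed to 94.7 to 192 CPM in the Tspan8neg libraries and to 4693 to 5355 in the Tspan8pos libraries. The part of the keratinized cells in the Tspan8 differences of the members was not tested.

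MHCIIhi against MHCIIlo within Tspan8neg cells split the members, of which 4 of 9 were called, where 22.7% of all genes were. Lypd2 and Slurp1 were higher, 2 of 9 beside 13.1% of all genes, and Ly6a and Ly6c1 were lower, 2 of 9 beside 9.67%. Lypd2 was 16.6-fold higher (log2 4.06 ± 0.32, adjusted p = 4.78e-06 in edgeR) and Slurp1 5.78-fold higher (2.53 ± 0.37, adjusted p = 0.000296). Thinned to the smallest total, the Slurp1 difference was called in 18 of 20 draws (1.72 to 3.58). Ly6a fell 2.80-fold (log2 -1.48 ± 0.17, adjusted p = 6.42e-05 in edgeR).

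Ly6c1 fell 2.41-fold in that comparison (log2 -1.27 ± 0.27, adjusted p = 0.00326 in edgeR). Its call was lost with DESeq2 (adjusted p = 0.0154), in the fit to the 4 libraries alone (0.0133 in edgeR) and without replicate 1 (-0.93, 0.0576) or replicate 2 (-1.54, 0.0102) of Tspan8negMHCIIhi, and it held in 8 of 20 thinning draws (log2 -1.53 to -0.62). Ly6e had -0.62 ± 0.12 (adjusted p = 0.00163 in edgeR), inside the 2-fold limit. Ly6d, Ly6g6c, Lypd3 and Lynx1 were between -0.31 and 0.19, each with an adjusted p of at least 0.175. The median of the 9 was -0.02 and that of all genes -0.04.

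Within Tspan8pos cells none of the 9 members was called between MHCIIhi and MHCIIlo in edgeR, where 7.21% of all genes were called, 4.59% higher and 2.62% lower. At an unadjusted p below 0.05, 5 were higher and 1 lower, and DESeq2 called 0. The largest difference was that of Lypd2, 0.98 ± 0.19 on the log2 scale (adjusted p = 0.00430 in edgeR), just inside the 2-fold limit. It passed the limit in the fit to the 4 libraries alone (1.01) and without Tspan8negMHCIIlo replicate 1 (1.007), and was called in 5 of 20 thinning draws. Ly6a followed with 0.78 ± 0.17 (adjusted p = 0.00861 in edgeR), and its libraries did not overlap. The median of the 9 was 0.46 and that of all genes 0.01.

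The 2 comparisons across both markers gave like counts. Tspan8posMHCIIhi against Tspan8negMHCIIlo called 7 of the 9 higher, all but Ly6e and Ly6c1, and 0 lower, where 14.4% of all genes were higher and 10.3% lower (24.7% either way). Ly6e had 0.93 ± 0.12 there, inside the 2-fold limit (adjusted p = 9.95e-05 in edgeR), and Ly6c1 -0.89 ± 0.27 (adjusted p = 0.0192). Slurp1 and Lypd2 had the largest differences, at 68.2-fold and 69.5-fold. These rest on 3 and 6 raw counts of Slurp1 and 5 and 8 of Lypd2 in Tspan8negMHCIIlo. Tspan8posMHCIIlo against Tspan8negMHCIIhi called 8 of the 9 higher, all but Ly6c1, and 0 lower, where 14.7% of all genes were higher and 14.6% lower (29.3% either way). Lypd2 was only 2.12-fold higher there, and Lypd3 27.9-fold. The 4 Tspan8 comparisons share libraries in pairs and are not independent of each other.

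**Figure D2:**
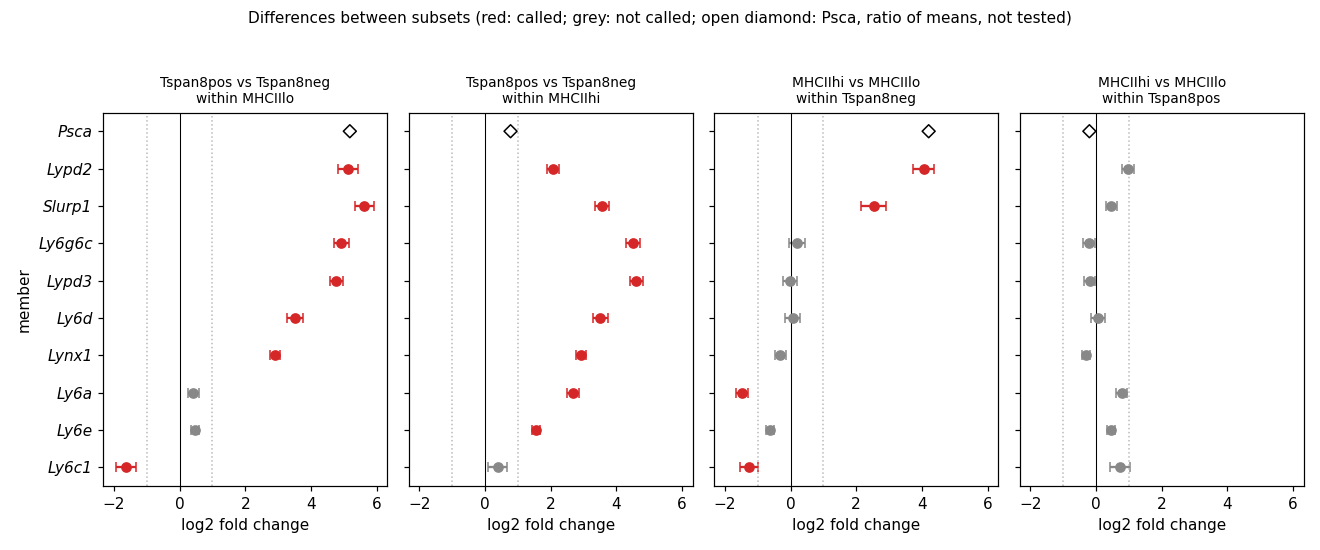
Fitted log2 fold changes with standard errors (x axis) of the 9 tested members (y axis, with Psca as an open diamond for the log2 ratio of its subset means) in the 4 comparisons, with called genes in red and dotted lines at a 2-fold difference. At high MHCII all tested members but Ly6c1 were called higher with Tspan8, and in Tspan8pos cells no member was called with MHCII.

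The members differed in whether the Tspan8 difference depended on MHCII. The interaction, the log2 Tspan8 difference at high MHCII minus that at low MHCII, was called for 4 of the 9, 3 positive (Ly6a, Ly6c1 and Ly6e) and 1 negative (Lypd2), where 4.60% of all genes were called, 2.24% positive and 2.36% negative. Ly6a had 2.26 ± 0.24 (adjusted p = 0.000402 in edgeR) and Lypd2 -3.08 ± 0.39 (adjusted p = 0.000884), the same sign as the -4.41 of Psca. Ly6e had 1.08 ± 0.17 (adjusted p = 0.00252 in edgeR). Without 1 of 5 libraries (either Tspan8negMHCIIhi library, either Tspan8posMHCIIhi library or Tspan8posMHCIIlo replicate 2) the Ly6e interaction was between 0.92 and 1.13 and was not called, with adjusted p of 0.0117 to 0.0263 in edgeR.

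Ly6c1 had an interaction of 2.01 ± 0.41 (adjusted p = 0.00984 in edgeR), just past the threshold. It was not called with DESeq2 (1.92, adjusted p = 0.0182), with DESeq2 size factors (1.95, 0.0115), in any of 20 thinning draws (0.88 to 2.45), or without any 1 of the 6 libraries outside Tspan8negMHCIIlo (1.65 to 2.30). Slurp1 had -2.07 ± 0.42 and just missed the threshold (adjusted p = 0.0105 in edgeR). It passed with DESeq2 size factors (-2.13, adjusted p = 0.00921 in edgeR) and under both other filters on low counts, and was called in 2 of 20 thinning draws. Ly6d, Ly6g6c, Lypd3 and Lynx1 were between -0.41 and 0.01, with standard errors of 0.20 to 0.31.

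**Figure D3:**
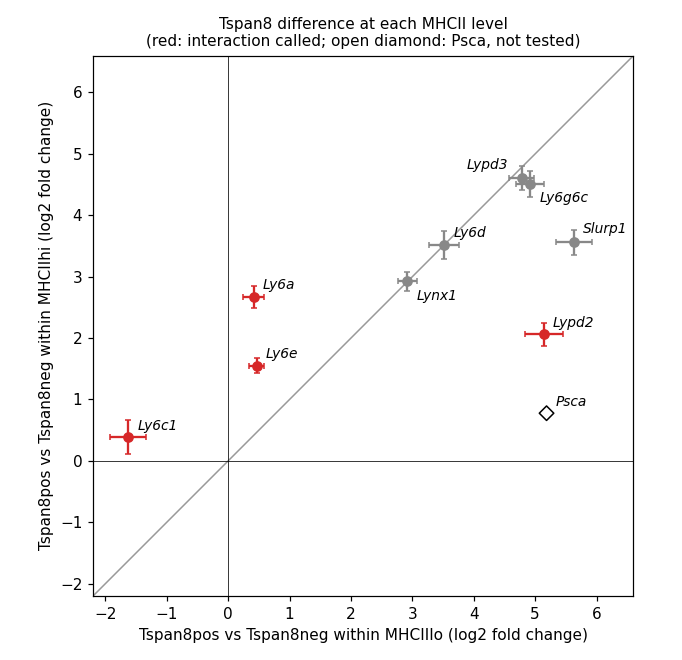
The log2 fold change of Tspan8pos against Tspan8neg at low MHCII (x axis) and at high MHCII (y axis), with standard errors, for the 9 tested members and for Psca as a ratio of means (open diamond). The grey diagonal marks equal differences. Lynx1, Ly6d, Lypd3 and Ly6g6c lie along it, Ly6a, Ly6e and Ly6c1 above it, and Lypd2, Slurp1 and Psca below it, and red points are called interactions.

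The order of the subsets was Tspan8posMHCIIlo first for Psca, Ly6g6c, Lypd3 and Lynx1, Tspan8posMHCIIhi first for Ly6a, Ly6d, Ly6e, Lypd2 and Slurp1, and Tspan8negMHCIIlo first for Ly6c1. Each order has 3 pairs of neighbours. For Lypd2 all 3 pairs differed at an adjusted p below 0.01 in edgeR. For Ly6a the pair Tspan8posMHCIIlo and Tspan8negMHCIIlo did not (adjusted p = 0.0721), for Ly6e the top pair did not (0.0211), and for Slurp1 the top pair did not (0.0973). For Ly6d, Ly6g6c, Lypd3 and Lynx1 a single pair differed, the step between the Tspan8pos and Tspan8neg subsets. No pair of neighbours differed for Ly6c1 (adjusted p of 0.0192, 0.307 and 0.354 in edgeR). Over the 9 tested members, 13 pairs of neighbours differed.

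Over the 8 libraries, the log2 CPM of Lypd2 was most like that of Psca among the members (Pearson r = 0.972), followed by Slurp1 (0.902), and Ly6c1 was the least alike (-0.837). Ly6a and Ly6e had r = 0.982 with each other, and Ly6d had r of 0.983 to 0.998 with Ly6g6c, Lypd3 and Lynx1. The 5 genes most like Psca, out of 11048 whose mean reached 10 CPM, were Gm13722, Hal, Prn, Me1 and Marveld2, with r of 0.985 to 0.991. Gm13722 is a pseudogene, so its reads may belong to another copy, and Prn shares sequence with the neighbouring genes Prnp and Prnd. Hal encodes histidine ammonia-lyase, an enzyme of the skin and liver, Me1 encodes malic enzyme, and Marveld2 encodes tricellulin of tight junctions. Hal was at a mean of 34.3 normalized counts in Tspan8negMHCIIlo and 619, 996 and 841 in Tspan8negMHCIIhi, Tspan8posMHCIIhi and Tspan8posMHCIIlo. Prn had 0 counts in both Tspan8negMHCIIlo libraries and a mean of 118, 359 and 321 in the same 3 subsets. The correlation does not measure the size of a difference, and the others were not near absent in Tspan8negMHCIIlo. Gm13722 had a mean of 367 there and 520, 533 and 540 in the same 3 subsets. Marveld2 had 148 against 301, 326 and 333, and Me1 124 against 819, 1637 and 1389. The points share subsets and were picked as the most alike, and none of the 5 was among the closest 5 by Spearman's correlation.

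In the 334 kb of chromosome 15 from Psca to Ly6c1, 22 genes of the table lay, 8 of them members, and 10 of the other 14 were tested. Of these, 4 were higher with Tspan8 at low MHCII (Slurp2, D730001G18Rik, Ly6k and 2010109I03Rik) and 0 were lower, where 12.1% and 9.34% of all tested genes were. Of the 4, 3 were higher at high MHCII as well, while D730001G18Rik was lower there (log2 -1.11, adjusted p = 0.00699 in edgeR). 2010109I03Rik, at 162 kb from Psca, had log2 fold changes of 4.76 and 3.53 in the 2 Tspan8 comparisons. Them6, Cyp11b1, Gml, Gml2, Ly6i and Gm28068 were not called in either. At low MHCII the genes called higher lay at up to 162 kb from Psca, with uncalled genes among them, and none from 240 kb on was called higher. Of the uncalled genes in the near part, Gml and Gml2 had subset means of at most 9.54 normalized counts. At high MHCII Ly6e and Ly6a, in the far part, were called higher.

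**Figure D4:**
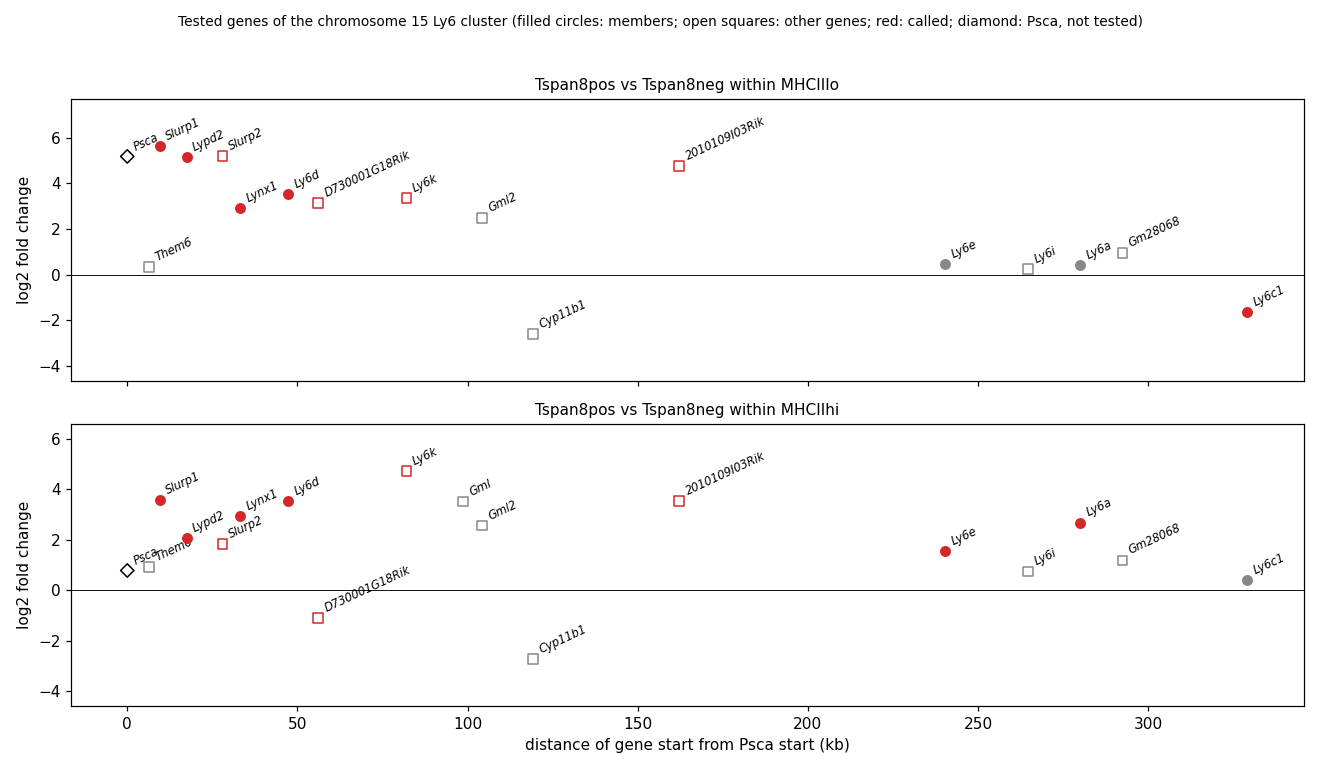
Log2 fold change of Tspan8pos against Tspan8neg (y axis) at low MHCII (top) and high MHCII (bottom) for the tested genes of the chromosome 15 cluster, by distance of the lowest coordinate of the gene from that of Psca in kb (x axis). Filled circles are members, open squares other genes and the diamond is Psca, called genes are red, and Gml is left out of the top panel because both Tspan8negMHCIIlo libraries had 0 counts. Ly6e, Ly6i, Ly6a and Gm28068, at 240 to 292 kb, were not called at low MHCII, and Ly6e and Ly6a were called at high MHCII.

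The rest of the Ly6 family, from a list of 38 genes of which 27 were in the table and 21 were tested, moved in both directions. With Tspan8, 7 were higher and 3 lower at low MHCII (median log2 0.80) and 10 higher and 1 lower at high MHCII (median 1.55). Of all genes, 12.1% were higher and 9.34% lower at low MHCII and 11.0% and 7.45% at high MHCII, so the lower counts were near the shares over all genes. Ly6k, Ly6g6d, Ly6g6e, Lypd1, Lypd5, Slurp2 and Pinlyp were higher in both. Lypd5 was at 7.51 to 21.1 normalized counts in the Tspan8neg libraries and at 360 to 712 in the Tspan8pos libraries (log2 5.98 ± 0.28 and 4.54 ± 0.24). Ly6g6e and Ly6g6d, the neighbours of Ly6g6c that overlap each other on opposite strands, had 4.16 ± 0.37 and 3.85 ± 0.61 at low MHCII.

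Slurp2, a secreted nicotinic receptor ligand like Slurp1, had 0 and 1 counts in Tspan8negMHCIIlo. It was at 13.7 and 19.9 normalized counts in Tspan8negMHCIIhi, 54.6 and 62.4 in Tspan8posMHCIIhi and 22.3 and 29.6 in Tspan8posMHCIIlo. Its ratio of Tspan8posMHCIIlo to Tspan8negMHCIIlo was 41.7, with an exact 95% counting interval of 7.14 to 1679. Like Psca and Lypd2, Slurp2 was thus lowest in Tspan8negMHCIIlo, and it was called in both Tspan8 comparisons and with MHCII in Tspan8neg cells.

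Ly6c2 and Ly6h were lower in Tspan8pos cells at low MHCII. Ly6c2 was at 118 and 165 normalized counts in Tspan8negMHCIIlo, 91.0 and 96.3 in Tspan8negMHCIIhi, 42.1 and 46.8 in Tspan8posMHCIIhi and 4.93 and 10.8 in Tspan8posMHCIIlo (log2 -3.90 ± 0.34 with Tspan8 at low MHCII). Ly6h, a brain-enriched member, fell at both MHCII levels (log2 -3.71 ± 0.31 and -2.75 ± 0.22). Cd177, a neutrophil surface protein, was at 610 and 910 in Tspan8negMHCIIlo and 39.1 and 63.8 in Tspan8negMHCIIhi, against 167 to 277 in the Tspan8pos libraries.

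With MHCII, 7 of the 21 were higher and 3 lower in Tspan8neg cells (median 0.59) and 5 higher and 1 lower in Tspan8pos cells (median 0.04). Of all genes, 13.1% were higher and 9.67% lower in Tspan8neg cells and 4.59% and 2.62% in Tspan8pos cells, and the lower counts were again near those shares. Ly6g, Ly6h, Ly6i and Lypd8 were higher at both Tspan8 levels. Lypd8, a secreted protein of colon epithelium that holds flagellated bacteria off the surface, was at 128 and 250 normalized counts in Tspan8negMHCIIlo, 874 and 1093 in Tspan8negMHCIIhi, 2497 and 3042 in Tspan8posMHCIIhi and 259 and 331 in Tspan8posMHCIIlo. Ly6g, a granulocyte antigen, was at 1.25 and 3.12, 103 and 114, 46.5 and 54.1, and 4.21 and 4.93 in the same order. The summed level of 6 myeloid markers was 50.3 to 112 CPM in Tspan8negMHCIIlo, 368 to 430 in Tspan8negMHCIIhi, 423 to 443 in Tspan8posMHCIIhi and 175 to 176 in Tspan8posMHCIIlo, and 4 of the 6 were called higher with MHCII in Tspan8neg cells. The markers did not move as 1 group. Itgax had -1.75 on the log2 scale in that comparison (adjusted p = 0.0269 in edgeR), and with Tspan8 at high MHCII Adgre1 and Flt3 were lower (-2.57 and -2.52) and Itgam higher (3.06). In Tspan8posMHCIIhi the sum was mostly Lyz2 and Itgam, at means of 1083 and 695 normalized counts. At most 2 of them were at 0 in a library, and their part in the Ly6g and Ly6i differences was not tested.

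Nicotinic acetylcholine receptor genes were higher with MHCII and lower with Tspan8 where they were called between subsets that differ in 1 marker. Slurp1, Slurp2 and Lynx1 are known to bind receptors made from some of these genes, not from all on the list. Of 16 on the list, 13 were tested. In Tspan8neg cells 6 were higher with MHCII (Chrna2, Chrna3, Chrna4, Chrna5, Chrna10 and Chrnb4) and 0 lower, where 13.1% and 9.67% of all genes were, with a median of 1.70 against -0.04 for all genes. Chrna5 was at 3.12 and 3.76 normalized counts in Tspan8negMHCIIlo, 80.2 and 111 in Tspan8negMHCIIhi, 19.7 and 25.7 in Tspan8posMHCIIhi and 0 and 4.21 in Tspan8posMHCIIlo. With Tspan8, 0 were higher at either MHCII level, 1 was lower at low MHCII (Chrnd, 1 count in all in Tspan8posMHCIIlo) and 4 were lower at high MHCII (Chrna2, Chrna4, Chrna5 and Chrna10). Of all genes, 9.34% were lower at low MHCII, near the 1 of 13, and 7.45% at high MHCII. At an unadjusted p below 0.05 in edgeR, 1 was higher at low and 0 at high MHCII, and DESeq2 called 0 higher at either level. The medians were -0.998 and -1.12, and with the 2 genes that had a subset at 0 counts held at their bounds the first was -0.93.

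In Tspan8pos cells 3 receptor genes were called higher with MHCII (Chrna4, Chrna5 and Chrnd), where 4.59% of all genes were, and DESeq2 called 1. That median was 1.74, or 0.90 with the 2 genes at 0 in Tspan8posMHCIIlo held at their bounds. Without 1 library the count ranged from 0 to 6, and it was 0 without either Tspan8negMHCIIhi library, Tspan8posMHCIIhi replicate 1 or Tspan8posMHCIIlo replicate 2. Chrna7, the receptor gene best known for Slurp1 and named here after its values were seen, had at most 4 counts in a library and was not tested.

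The genes that build, remodel or cleave the GPI anchor, 30 on the list and all tested, were called higher with Tspan8 at shares near those of all genes. With Tspan8, 5 were higher at low MHCII (Piga, Pigz, Pgap1, Pgap2 and Gpld1; median 0.32) and 4 at high MHCII (the same without Pigz; median 0.41), with 0 lower in both. Of all genes, 12.1% and 11.0% were higher and 9.34% and 7.45% lower. At an unadjusted p below 0.05 in edgeR, 0 were lower at low and 1 at high MHCII, and DESeq2 called 0 lower. Gpld1, a phospholipase that cuts GPI anchors, was at 56.8 to 66.6 normalized counts in the Tspan8neg libraries and at 210 to 358 in the Tspan8pos libraries (log2 2.36 ± 0.18 and 2.04 ± 0.17). Piga, Pgap1 and Pgap2, which start the anchor and remodel its lipid, had log2 fold changes of 1.13 to 2.66.

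Pigz, a mannosyltransferase of the anchor, was lowest in Tspan8negMHCIIlo like Psca and Lypd2. Unlike them, it was higher in Tspan8negMHCIIhi than in Tspan8posMHCIIlo. It was at 16.3 and 20.8 normalized counts in Tspan8negMHCIIlo, 289 and 297 in Tspan8negMHCIIhi, 405 and 408 in Tspan8posMHCIIhi and 217 and 236 in Tspan8posMHCIIlo. Its interaction was -3.06 ± 0.25 (adjusted p = 0.000175 in edgeR). With MHCII in Tspan8neg cells, 1 of the 30 anchor genes was higher (Pigz) and 1 lower (Mppe1), where 13.1% and 9.67% of all genes were. In Tspan8pos cells 0 of 30 were called, where 7.21% of all genes were. There 2 were higher and 3 lower at an unadjusted p below 0.05 in edgeR, and DESeq2 called 0.

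Agr2, a secreted disulfide isomerase named as a ligand of Lypd3, was at 2.50 and 6.24 normalized counts in Tspan8negMHCIIlo, 8.81 and 15.6 in Tspan8negMHCIIhi, 334 and 354 in Tspan8posMHCIIhi and 276 and 314 in Tspan8posMHCIIlo. The Tspan8pos libraries lay above all Tspan8neg libraries, as for Lypd3. It was 64.0-fold higher with Tspan8 at low MHCII (SE 0.33 on the log2 scale) and 27.7-fold higher at high MHCII (SE 0.26; adjusted p = 2.92e-07 and 3.23e-07 in edgeR). The other ligand on the list, Agr3, was at 0 to 8.33 normalized counts and was not tested.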

How the data were processed

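RNA was measured in 8 libraries of FACS-isolated mTECs, grouped by the subset and replicate number in their labels. The authors deposited estimated counts per gene, which are whole numbers and not normalized. Per the paper's methods, reads of 54 bases were quantified with Salmon 1.8.0 on a Gencode mouse transcriptome, and per the labels the build is mm10. The methods describe cDNA pre-amplification with tagmentation, and the labels a stranded mRNA kit. Symbols and coordinates came from GENCODE on GRCm38, where 25336 of 25466 identifiers matched and 130 did not. Sequences came from its transcripts and from RefSeq promoters, which matched 3 members.

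The test was the quasi-likelihood test of edgeR 4.0.16 under R 4.3.3 (TMM scaling, filterByExpr) in 1 fit of all 8 libraries and 17006 genes, with a common dispersion of 0.0240 and two-sided p-values. DESeq2 1.42.0 gave size factors and an alternative test. The SE of a log2 fold change is its size divided by the square root of F. Intervals of ratios are exact 95% binomial and cover counting error only. A subset whose libraries all had 0 counts was set to 3 counts per library to give a bound. No exact permutation test is given, since with 2 libraries against 2 it has no p below 0.05. The fit was tested on simulated data.

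The members and lists were chosen with earlier results of these data known. The genes named are the members, listed Ly6 family, receptor and anchor genes called in at least 1 comparison, tested genes between the members on chromosome 15, the 5 genes most like Psca in log2 CPM, Agr2 and Agr3, the sort markers, and genes needed to read a value. Alternatives were DESeq2, its size factors, other filters, the 4 libraries of a contrast, a replicate block, other thresholds, thinning to 1941518 counts (20 draws) and leaving out each library.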

Additional observations from a re-analysis of the deposited data

Results flagged for a closer look

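These genes are named because their Tspan8 difference at high MHCII differed from that at low MHCII in a test of the difference itself (edgeR's quasi-likelihood test, adjusted over 17006 genes). Values are the log2 Tspan8 difference at high MHCII minus that at low MHCII. Ly6a had 2.26 (adjusted p = 0.000402), with Tspan8pos libraries above Tspan8neg libraries at both MHCII levels. Ly6e had 1.08 (adjusted p = 0.00252), with the Tspan8pos libraries likewise above at both levels. Ly6c1 had 2.01 (adjusted p = 0.00984), with the Tspan8pos libraries below at low MHCII and, at 65.1 and 69.8 against 42.1 and 64.4 normalized counts, above at high MHCII. Its call was lost with DESeq2 (adjusted p = 0.0182), in all 20 thinning draws and without any 1 of 6 libraries, and that of Ly6e without any 1 of 5. Lypd2 had -3.08 (adjusted p = 0.000884), with the Tspan8pos libraries above at both levels. Among the other Ly6 family genes, Ly6c2 had 2.89 (adjusted p = 0.00242) and Cd177 had 3.43 (adjusted p = 0.000360). Cd177 was lower in Tspan8pos cells at low MHCII (log2 -1.57) and higher at high MHCII (1.86). The summed endothelial, thymocyte and myeloid markers that differ between the same subsets are given beside the members above, and their part in these values was not tested.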

How the results depend on the processing

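Of the alternatives tried, 330 values that answer a comparison stayed within a tolerance, 33 were lower counts, 14 higher counts and 2 moved otherwise. For counts the tolerance was a ratio of at most 1.5 to the main count, and for Psca the spread of its libraries. Values within it were not all identical. Thinning was repeated over 20 draws after a pair of draws had given different calls, a choice made after seeing the data. Over the draws 2 to 4 members (median 3) were called with MHCII in Tspan8neg cells, 6 to 7 and 8 with Tspan8 at low and high MHCII, 0 to 1 with MHCII in Tspan8pos cells and 3 to 4 in the interaction. In the first draw the Psca log2 ratio with MHCII in Tspan8neg cells was 4.44. In Tspan8pos cells 1 was called in the fit to the 4 libraries, 2 without a fold limit and 0 to 1 without 1 library. In the interaction 2 to 4 were called without 1 library. The order of subsets held for 9 of 10 members in TMM-scaled CPM and in the first thinning draw, and for 6 to 10 without 1 library, with 6 without Tspan8negMHCIIhi replicate 2. Ly6 family: 7 to 13 were called without 1 library with Tspan8 at high MHCII, 2 to 7 with MHCII in Tspan8pos cells and 1 to 3 in the interaction, where 4 were called at an adjusted p below 0.05. Receptor genes, Tspan8 at low MHCII: 2 with at least 10 counts in 4 libraries, 0 in the first thinning draw (0 to 2 over draws), 3 at an adjusted p below 0.05, 2 without a fold limit and 0 to 3 without 1 library. At high MHCII 2 were called in the first draw (2 to 4 over draws) and 0 to 6 without 1 library, and with MHCII in Tspan8neg cells 3 to 6. With MHCII in Tspan8pos cells: 1 by DESeq2, 5 without a filter, 0 in the first draw (0 to 1 over draws), 5 at an adjusted p below 0.05 and 0 to 6 without 1 library. Anchor genes: 1 with MHCII in Tspan8neg cells in the fit to the 4 libraries and 1 to 3 without 1 library, 1 in Tspan8pos cells without a fold limit, and 2 to 5 and 3 to 5 with Tspan8 at high and low MHCII without 1 library. The cause of these shifts was not tested beyond the fewer libraries or counts.

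Among the members, 24 values changed sign, none of them called in either fit. Ranges without 1 library were -0.26 to 0.48 for Ly6d with MHCII in Tspan8neg cells, -0.041 to 0.21 in Tspan8pos cells and -0.41 to 0.35 in the interaction. They were -0.10 to 0.59 for Ly6g6c with MHCII in Tspan8neg cells, -0.10 to 0.15 for Lypd3 in Tspan8neg cells, -0.36 to 0.012 in Tspan8pos cells and -0.33 to 0.043 in the interaction, and -0.10 to 0.052 for the Lynx1 interaction. Lypd3 with MHCII in Tspan8neg cells was 0.061 with DESeq2 and with its size factors, 0.047 without a filter, 0.017 with 10 counts in 4 libraries and 0.049 in the 4 libraries. The Lynx1 interaction was -0.056 with DESeq2 and with its size factors, -0.059 without a filter and -0.032 with 10 counts in 4 libraries.

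Whether same-numbered libraries are pairs is not known, and they were not treated as pairs. Their deviations had correlations of 0.0040 to 0.0924 over all tested genes, low ones included, which cannot exclude pairing. With the replicate number as a block, 5 members were called in the interaction in place of 4, with Slurp1 at -2.05 added (adjusted p = 0.00659 in edgeR), and 13 Ly6 family genes in place of 11 with Tspan8 at high MHCII. Depth limits the lowest values: 3 counts correspond to 0.385 to 1.55 CPM per library, here without TMM scaling.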
